A study of Mus musculus with 6 samples.

Results

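The genes described here are 10 genes of mitochondrial fatty acid oxidation: Cpt1a, Cpt2, Slc25a20, Acadvl, Acadl, Acadm, Hadha, Hadhb, Etfdh and Pdk4. They were chosen by name, with earlier results of these data known, and all 10 were found among the 15469 genes of the table. The study sequenced RNA from 6 samples of macrophages washed out of the mouse peritoneal cavity, all from CAIA mice (the labels give only the abbreviation). Cells carrying RELM-α at their surface were sorted and plated in culture before RNA was extracted. The 3 libraries with the label KO are of macrophages in which PU.1 was deleted, and the 3 with the label WT are of controls. PU.1 is a myeloid transcription factor that the gene Spi1 encodes, and the study addressed its part in ferroptosis, cell death driven by iron and lipid peroxides. The labels name no strain, age, deletion method or driver of the deletion, and do not say that replicates were separate animals or cultures, so p-values measure the spread between these libraries, which may be technical.

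Fatty acids with long chains enter mitochondria as carnitine esters. Cpt1a, at the outer membrane, makes the ester and is the controlled step; Slc25a20 exchanges it for carnitine across the inner membrane; Cpt2 turns it back into the CoA ester. Acadvl, Acadl and Acadm then make the first dehydrogenation for very long, long and medium chains, and Hadha and Hadhb, the alpha and beta subunits of the trifunctional protein, do the remaining steps for long chains. Etfdh passes the electrons of the dehydrogenases to ubiquinone. Pdk4 is a kinase that switches off the pyruvate dehydrogenase complex and so spares glucose when fat is burnt. In macrophages this pathway is often discussed together with alternative activation, and several of its genes are known targets of the PPAR nuclear receptors.

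The sequences upstream of Cpt1a, Slc25a20, Acadl and Acadm are shown because these 4 members had lower scaled counts in every library labelled KO than in any library labelled WT. They are from RefSeq's promoter table of GRCm38.p6, in which all 10 members matched, and run 5′ to 3′ on the gene's strand without the bases that GENCODE M21 lists as exonic. Positions are counted back from the table's start site. The windows are chr19:3323051-3323284 on the plus strand for Cpt1a, chr9:108661886-108662087 on the plus strand for Slc25a20, chr1:66863310-66863559 on the minus strand for Acadl and chr3:153944644-153944893 on the minus strand for Acadm. The Cpt1a window belongs to a start at 3323301, inside the gene's listed range. Capitals mark matches to the motifs named after the sequences.
Cpt1a: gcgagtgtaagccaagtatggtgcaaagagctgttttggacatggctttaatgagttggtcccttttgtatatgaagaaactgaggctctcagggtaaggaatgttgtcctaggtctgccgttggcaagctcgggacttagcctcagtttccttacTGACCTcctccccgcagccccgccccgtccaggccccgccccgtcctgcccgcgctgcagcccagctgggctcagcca
Slc25a20: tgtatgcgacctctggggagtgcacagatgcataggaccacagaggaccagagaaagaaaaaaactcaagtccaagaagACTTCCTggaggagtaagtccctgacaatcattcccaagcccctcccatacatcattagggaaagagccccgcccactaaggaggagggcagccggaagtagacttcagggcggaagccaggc
Acadl: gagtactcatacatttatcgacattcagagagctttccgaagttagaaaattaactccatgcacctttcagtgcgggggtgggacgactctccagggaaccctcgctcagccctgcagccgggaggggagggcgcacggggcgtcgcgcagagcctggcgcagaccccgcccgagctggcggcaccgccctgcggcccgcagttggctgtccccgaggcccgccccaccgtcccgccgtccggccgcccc
Acadm: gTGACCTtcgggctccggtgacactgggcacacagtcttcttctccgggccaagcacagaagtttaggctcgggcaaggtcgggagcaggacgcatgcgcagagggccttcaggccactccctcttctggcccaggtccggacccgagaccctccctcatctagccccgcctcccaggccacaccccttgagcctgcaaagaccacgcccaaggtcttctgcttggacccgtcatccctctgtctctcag

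In Cpt1a and Acadm the capitals are AGGTCA, the core hexamer that many nuclear receptors bind, read on the other strand. They lie at -94 to -89 in Cpt1a and at -249 to -244 in Acadm. In Slc25a20 they are AGGAAGT, an ETS-type core with its flank, read on the other strand at -171 to -165. Acadl held none of the motifs searched. Over the 250 bases before the start of all 10 members and on both strands, AGGTCA was found in 3 (Cpt1a, Acadvl and Acadm), against 14% of 32851 promoters of the same length. AGGAAGT was found in 2 (Acadvl and Slc25a20), against 7.69% of promoters. The NRF1 motif was found in 1 (Etfdh), against 3.74%, but all 250 bases of the Etfdh window are annotated Etfdh exon in GENCODE M21. The Hadha and Hadhb windows share 228 bases, so the 10 windows are not all separate. TCAAGGTCA, the oestrogen-related receptor site, and the direct repeat that PPAR binds with its partner were in none of the 10, against 0.387% and 0.338% of promoters. GAGGAAGT, a core of PU.1 sites, was in none, against 2.44%. AGGTCA lies within TCAAGGTCA, and AGGAAGT within GAGGAAGT, so these are not separate searches. A match is a run of letters, and its absence says nothing of a factor outside these windows. Only the exact letters named were searched, so other forms of a site are neither marked nor counted. GGAAGT after other letters, as in CCGGAAGT of the Slc25a20 window, is such a form.

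The libraries held between 17280855 and 18632623 estimated counts. Spi1 itself did not differ detectably between the labels, at 402, 380 and 431 TPM (transcript abundance scaled for gene length and library total) in KO replicates 1, 2 and 3, against 385, 417 and 370 TPM in WT replicates 1, 2 and 3 (edgeR adjusted p = 0.561), so the groups are called by their labels. Gene counts do not show a deletion that leaves the transcript. Kdm5d, a Y-linked gene, had 0 TPM in all 3 KO libraries, against 6.32, 6.84 and 9.24 TPM in the WT libraries, so the carriage of the Y chromosome and the genotype cannot be told apart in any result below. KO replicate 1 stands apart: on the first principal component it lay at -22.4, KO replicates 2 and 3 at 73.2 and 57.5, and the WT libraries between -44.9 and -30.8. Fits without it are therefore given beside the results on members. Macrophage markers were abundant in every library. The 10 of 11 listed that the table held summed to 35115, 79905 and 77882 TPM in KO replicates 1, 2 and 3. In the WT libraries they summed to 63160 to 66249 TPM. Single markers did not all share the low sum of KO replicate 1. In KO replicates 1, 2 and 3 Csf1r was at 1411, 1154 and 1153 TPM, Cd68 at 3743, 3434 and 3661 TPM and Adgre1 at 516, 718 and 711 TPM. In WT replicates 1, 2 and 3 Csf1r was at 622, 639 and 684 TPM, Cd68 at 3829, 3524 and 3636 TPM and Adgre1 at 327, 334 and 381 TPM. Adipocyte markers, 4 of 6 in the table, summed to 0 to 0.35 TPM in the KO libraries and 0.17 to 0.32 TPM in the WT libraries. Of the 10 macrophage markers 2 rose, as did 2 of 4 monocyte markers tested. Over all tested genes edgeR called 2.26% higher and 1.06% lower in KO (adjusted p under 0.05). The 5 monocyte markers summed to 150, 48.4 and 46.2 TPM in KO replicates 1, 2 and 3, against 9.31 to 11.6 TPM in WT. In the same order, 7 of 8 neutrophil markers summed to 59.1, 26.7 and 22.9 TPM in KO, against 73.5 to 83.6 TPM in WT. The 6 platelet markers, of which 3 fell, summed to 249, 79.1 and 72.8 TPM in KO replicates 1, 2 and 3, against 121 to 187 TPM in WT. The 3 erythroid markers in the table, of 5 listed, summed to 6.52, 0.27 and 0 TPM in KO replicates 1, 2 and 3, against 4.8 to 7.01 TPM in WT. The part of these cells in the results below was not tested. In bulk RNA, fewer cells of a type and less RNA per cell cannot be told apart.

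**Figure D1:**
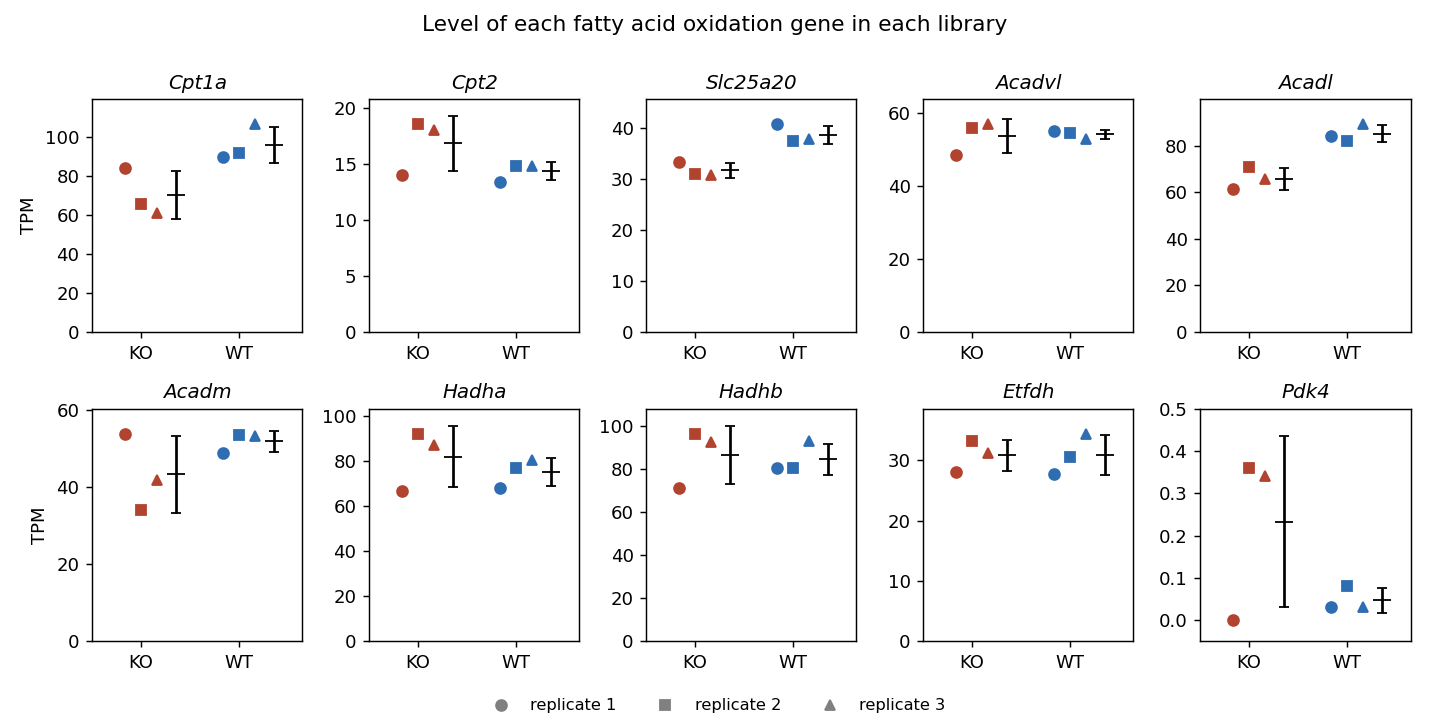
Level of each of the 10 genes in TPM (vertical axis, a separate scale per panel), KO libraries in red at the left and WT libraries in blue at the right, with a marker shape per replicate and the mean with SD of 3 libraries in black. Cpt1a, Slc25a20 and Acadl had no overlap between the groups, while Pdk4 was at or under 0.36 TPM in every library.

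All the enzymes and carriers were expressed, and Pdk4 was nearly silent. In the libraries labelled KO the order of the levels, by mean TPM, was Hadhb (86.8), Hadha (82), Cpt1a (70.2), Acadl (65.8), Acadvl (53.7), Acadm (43.4), Slc25a20 (31.7), Etfdh (30.8), Cpt2 (16.9) and Pdk4 (0.233). In the libraries labelled WT it was Cpt1a (96), Acadl (85.1), Hadhb (84.6), Hadha (75.2), Acadvl (54.1), Acadm (51.9), Slc25a20 (38.6), Etfdh (30.9), Cpt2 (14.4) and Pdk4 (0.0467). Cpt1a thus came after Hadhb and Hadha among the KO means and had the highest of the WT means. Neighbours in the order were not all apart. In the KO libraries the ranges of Hadhb and Hadha, Hadha and Cpt1a, Cpt1a and Acadl, Acadvl and Acadm, and Slc25a20 and Etfdh overlapped. In the WT libraries those of Acadl and Hadhb, Hadhb and Hadha, and Acadvl and Acadm overlapped. The 10 genes summed to 461, 498 and 486 TPM in KO replicates 1, 2 and 3, against 508, 522 and 562 TPM in WT replicates 1, 2 and 3.

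In mean CPM (counts on one common scale for the libraries, not scaled for gene length), Cpt1a, the entry enzyme, fell in KO to 0.66 of its WT level. Slc25a20, Acadl and Acadm stood at 0.738, 0.7 and 0.749 of their WT levels, short of the threshold, and the other 5 tested members at 0.898 to 1.07. By the TPM means above, these 4 genes lay nearer to their WT levels, and Cpt2, Hadha and Hadhb were higher in KO. Of the 9 members with enough counts to test, 1 fell and 0 rose in the libraries labelled KO by edgeR's quasi-likelihood test (adjusted p under 0.05 over 11424 genes), where 1.06% of all genes fell and 2.26% rose. Slc25a20, Acadl and Acadm had an unadjusted p under 0.05 but were not called; over all genes 7.76% were lower with such a p. With Cpt1a, these were also the 4 members whose groups did not overlap in CPM, all lower in KO, against 12.6% of all tested genes lower without overlap. The median log2 difference of the 9 members, KO minus WT, was -0.15, beside -0.01 over all genes tested. It was -0.03 without KO replicate 1, beside 0.02 over all genes.

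Cpt1a (chromosome 19, 3322326 to 3385735 in RefSeq, plus strand, GRCm38.p6) carried 192.8, 166.4 and 151.8 CPM in the KO libraries (replicates 1, 2 and 3), against 251.4, 250.1 and 272.5 CPM in WT replicates 1, 2 and 3. Every KO library lay below every WT library, and KO replicate 1 was the nearest to them. It averaged 170.3 ± 20.7 CPM in KO and 258 ± 12.6 CPM in WT (SD, n = 3 each). KO minus WT was -0.60 on the log2 scale, with SE 0.111 and a 95% interval from -0.87 to -0.33 (edgeR adjusted p = 0.0497), or 0.66 as a ratio of the means. The call sits at the threshold. Without KO replicate 1 the log2 difference was -0.68 (adjusted p = 0.000462). Without any 1 of the other 5 libraries it stayed between -0.64 and -0.56 with an adjusted p between 0.152 and 0.235, so those fits do not call it. With smooth terms for GC content and transcript length it was -0.84 (adjusted p = 0.0534).

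Slc25a20 (chromosome 9, 108662136 to 108684642, plus strand), the carrier that follows Cpt1a, had nearly equal values in the KO libraries. It was at 28.2, 28.7 and 28.3 CPM in the KO libraries (replicates 1, 2 and 3), against 42.1, 37.6 and 35.8 CPM in the WT libraries. The KO libraries lay together below all WT libraries, KO replicate 1 included. The log2 difference was -0.44 (SE 0.0974, from -0.68 to -0.20 at 95%, edgeR adjusted p = 0.0693), and without KO replicate 1 it was -0.42 (0.0131). Cpt2 (chromosome 4, 107903982 to 107923589, minus strand), the enzyme on the inner side, did not share this pattern. It was at 16.7, 24.3 and 23.3 CPM in the KO libraries (replicates 1, 2 and 3), against 19.5, 21 and 19.7 CPM in the WT libraries. KO replicate 1 was the lowest of the 6 libraries and the other KO libraries were the highest. Its log2 difference was 0.09 (interval -0.30 to 0.49, edgeR adjusted p = 0.73), 0.26 without KO replicate 1 (0.0642), and -0.14 with the GC and length terms.

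The TPM of Cpt1a divided by that of Cpt2 was 5.98, 3.55 and 3.37 in KO replicates 1, 2 and 3, against 6.67, 6.16 and 7.18 in the WT libraries. All KO ratios were below all WT ratios, with KO replicate 1 close to the WT libraries. The mean log2 ratio was lower in KO by a difference of -0.68 (two-sided exact permutation test, p = 0.1, the smallest that 20 assignments of 3 against 3 libraries allow), and by -0.95 without KO replicate 1.

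Among the dehydrogenases, Acadl and Acadm were lower in KO without passing the test, and Acadvl overlapped between the labels. Acadl (chromosome 1, 66830839 to 66863309, minus strand), the long-chain enzyme, was at 58.9, 74.7 and 68.4 CPM in the KO libraries (replicates 1, 2 and 3), against 99.2, 93.5 and 95.8 CPM in the WT libraries. Here KO replicate 1 was the lowest and no KO library reached a WT library. The log2 difference was -0.51 (SE 0.109, from -0.78 to -0.25 at 95%, edgeR adjusted p = 0.0638), -0.41 without KO replicate 1 (0.00514) and -0.38 with the GC and length terms.

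Acadm (chromosome 3, 153922353 to 153944643, minus strand), the medium-chain enzyme, was at 55.4, 38.6 and 46.8 CPM in the KO libraries (replicates 1, 2 and 3), against 61.4, 65.3 and 61.3 CPM in the WT libraries. KO replicate 1 lay next to the WT libraries, and on the TPM scale it lay above them, at 53.9 TPM against 48.9, 53.5 and 53.4 TPM in WT. The log2 difference was -0.42 (SE 0.145, from -0.77 to -0.06 at 95%, edgeR adjusted p = 0.165) and -0.54 without KO replicate 1 (0.00448). Acadvl (chromosome 11, 70010183 to 70015428, minus strand), the very-long-chain enzyme, was at 53.1, 67.5 and 67.7 CPM in the KO libraries, against 74, 70.9 and 64.7 CPM in the WT libraries. Its KO replicates 2 and 3 lay inside the WT range (log2 difference -0.15, interval -0.46 to 0.15, edgeR adjusted p = 0.47), and without KO replicate 1 the difference was -0.03. Of the 2686 exonic bases of Acadvl, 1151 also belong to exons of Dvl2 on the opposite strand in GENCODE M21. The strand setting of the counting is not given, so reads of the pair may be mixed.

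**Figure D2:**
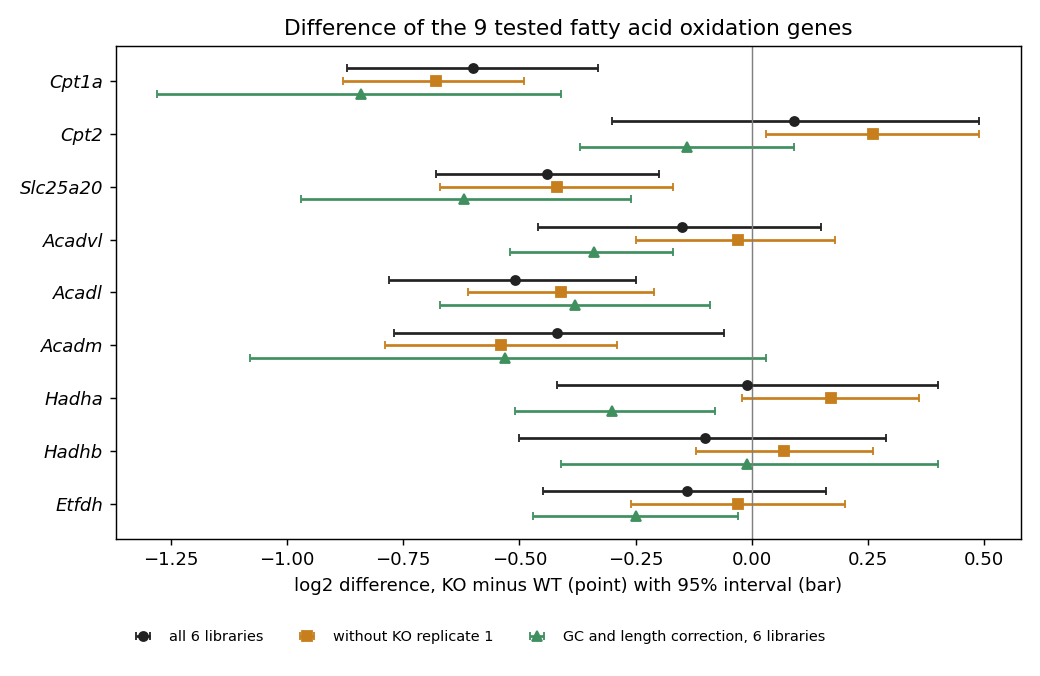
Log2 difference, KO minus WT (horizontal axis), of the 9 tested genes, with its 95% interval, from edgeR on all 6 libraries (black), without KO replicate 1 (orange) and with GC and length terms (green). Cpt1a, Slc25a20 and Acadl lay below 0 with their intervals in all 3 fits, and Hadha, Hadhb and Cpt2 changed sign between fits.

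Neither gene of the trifunctional protein passed the test, and the groups overlapped for both. Its genes lie head to head on chromosome 5, Hadha at 30119423 to 30154980 on the minus strand and Hadhb at 30155253 to 30184593 on the plus strand, with 272 bases between them. Hadha was at 93.1, 141.8 and 132.4 CPM in the KO libraries (replicates 1, 2 and 3), against 116.3, 127.9 and 125.4 CPM in the WT libraries. Hadhb was at 72.1, 107.3 and 101.6 CPM in the KO libraries, against 99.5, 96.9 and 105.1 CPM in the WT libraries. For both genes KO replicate 1 was the lowest of all 6 libraries and KO replicate 2 the highest. The log2 difference was -0.01 for Hadha (interval -0.42 to 0.40, edgeR adjusted p = 0.976) and -0.10 for Hadhb (-0.50 to 0.29, 0.703). Without KO replicate 1 these were 0.17 and 0.07, and with upper-quartile scaling Hadha was at 0.06, so the sign of neither held in every fit.

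The TPM of Hadha divided by that of Hadhb was 0.934, 0.956 and 0.944 in KO replicates 1, 2 and 3, against 0.847, 0.957 and 0.866 in the WT libraries. The groups overlapped, with a log2 difference of 0.09 (two-sided exact permutation test, p = 0.4). Etfdh (chromosome 3, 79603788 to 79628767, minus strand) was at 32.3, 41.9 and 39 CPM in the KO libraries, against 39.1, 41.8 and 44.2 CPM in the WT libraries. KO replicate 1 was again the lowest (log2 difference -0.14, interval -0.45 to 0.16, edgeR adjusted p = 0.493), and without it the difference was -0.03. A few exonic bases are shared with genes on the other strand, 278 with 4930579G24Rik for Etfdh and 75 with Garem2 for Hadha.

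Pdk4 (chromosome 6, 5483351 to 5496278, minus strand) had too few counts for the test. Counts of 0, 14 and 13 were assigned to it in KO replicates 1, 2 and 3, against 1, 3 and 1 in the WT libraries. KO replicates 2 and 3 were above the WT libraries and KO replicate 1 was below them. The 27 KO counts against 5 WT counts give a ratio of 5.36 after scaling to total counts, with an exact 95% binomial interval of 2.03 to 17.8. Counts were pooled over the libraries of each group, so this interval leaves out the spread between libraries. PCR copies are not independent molecules, so even the counting error may be larger. Without a filter on low counts edgeR gave an adjusted p of 0.366 and DESeq2 one of 0.362. When KO replicate 1 was left out Pdk4 passed the filter and edgeR called it higher (log2 difference 2.77, adjusted p = 0.00415). It passed the filter only through the KO libraries where it was high, so this call is no independent evidence of a rise.

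**Figure D3:**
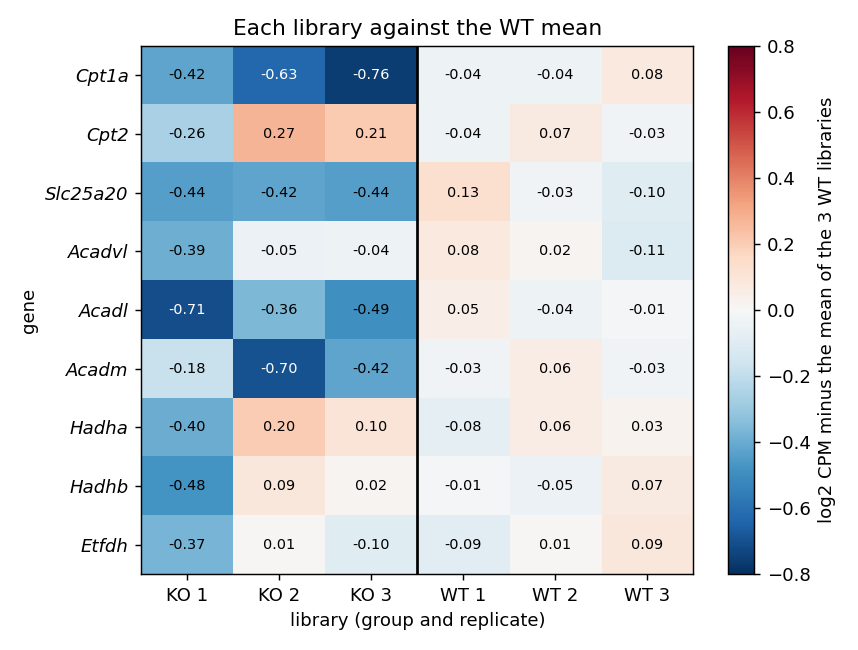
Log2 CPM of each tested gene in each library minus its mean over the 3 WT libraries (colour and printed value), genes down and libraries across, KO at the left of the line. KO replicate 1 was below 0 for all 9 genes, and KO replicates 2 and 3 were below -0.3 for Cpt1a, Slc25a20, Acadl and Acadm.

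In KO replicate 1 all 9 tested members lay below the WT mean, with a median of -0.40 on the log2 scale, while 44.7% of all tested genes lay below it. In KO replicates 2 and 3, 5 and 6 of the 9 members lay below, with medians of -0.05 and -0.10, beside 49.2% and 51.2% of all genes. Slc25a20 was the member on which the 3 KO libraries were closest, at -0.44, -0.42 and -0.44. The deviation of Acadl was -0.71 in KO replicate 1, against -0.36 and -0.49 in the other KO libraries, and that of Cpt1a was -0.42 against -0.63 and -0.76. Without KO replicate 1, edgeR called 4 of 10 members lower (Cpt1a, Slc25a20, Acadl and Acadm) and 1 higher (Pdk4). Pdk4 entered that fit only through its counts in KO replicates 2 and 3, where it was high. The same fit called 26.0% of 11677 genes lower and 23.6% higher. With the GC and length terms as well, 6 members were lower and 2 higher, against 34.5% and 19.6% of all genes, with a median over all genes of -0.12.

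DESeq2 on all 6 libraries called 3 members lower, Cpt1a (adjusted p = 0.00022), Acadl (0.00791) and Slc25a20 (0.0118), where 3.69% of all genes were lower. In the authors' deposited table, also from DESeq2, the same 3 members had a q-value under 0.05 (0.000276 for Cpt1a, 0.00975 for Acadl and 0.0146 for Slc25a20), beside 2.73% of its genes lower. Limma-voom called Cpt1a alone (adjusted p = 0.0493), with 1.10% of all genes lower and 3.11% called in either direction. DESeq2 called 7.12% of all genes higher. Among the remaining fits, the share of all genes called in either direction was 3.29% with RLE factors, 3.34% with upper-quartile factors, 1.90% without a filter and 2.77% above a mean of 10 CPM. It was 5.01% with the GC and length terms, 0.149% when the replicate block was added to them, 0.00% with the block alone and 0.131% at an adjusted p under 0.01. Limma called 8.64% on log2(TPM + 1) and 9.38% on log2(TPM + 0.1). On both TPM scales Acadl was the 1 member called and Cpt1a was not (limma adjusted p = 0.0901 and 0.0888). Leaving out KO replicate 2 or 3 gave 0.130% and 0.0952%, and leaving out WT replicate 1, 2 or 3 gave 0.119%, 0.0427% and 0.0598%.

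**Figure D4:**
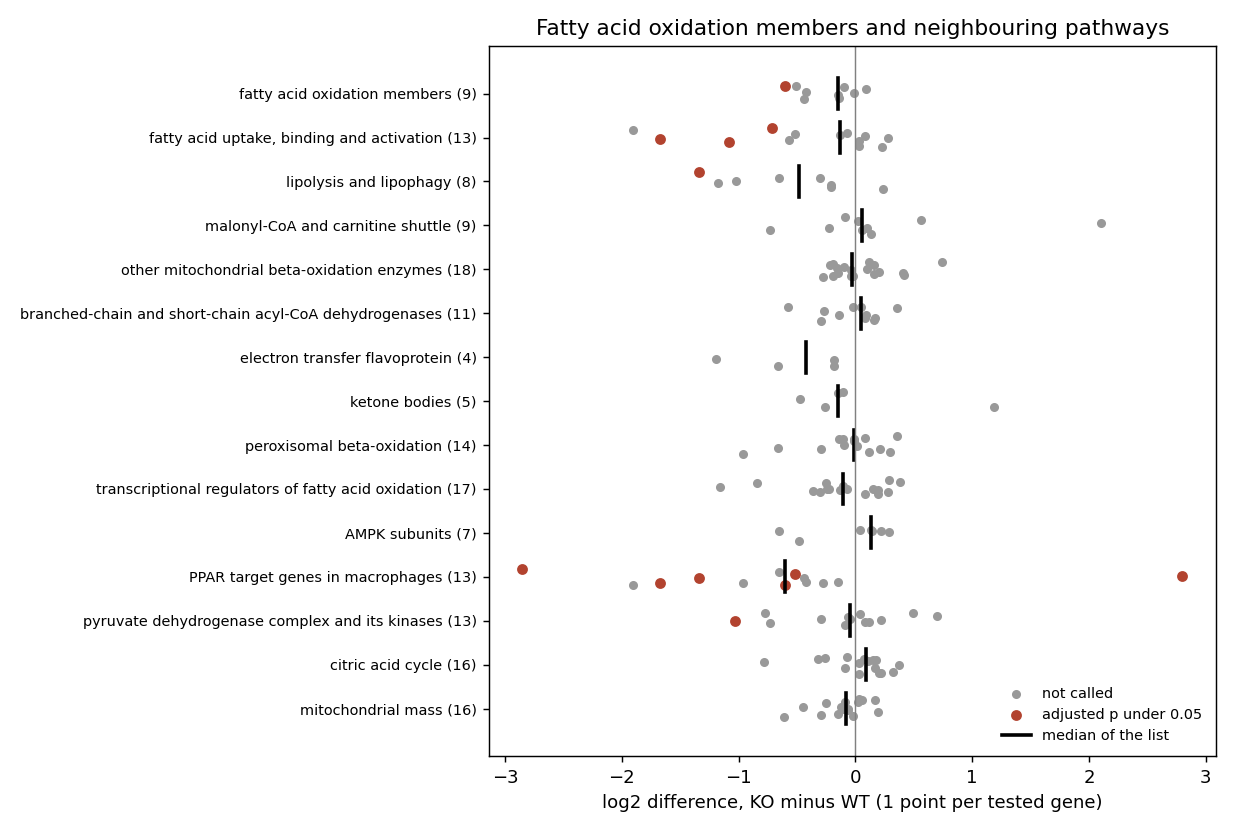
Log2 difference, KO minus WT (horizontal axis), of every tested gene of the fatty acid oxidation members and 14 neighbouring gene lists (rows, number tested in brackets), with called genes in red and the list median as a black bar. Called genes lay among the members (Cpt1a) and in the lists of fatty acid binding, lipid droplets, PPAR targets and pyruvate entry.

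In 14 lists of related genes, which hold 173 genes besides the members, 155 were tested, and 1 rose and 7 fell, where 2.26% of all genes rose and 1.06% fell. The lists were drawn up with earlier results of these data known, so their counts are no independent evidence of a direction. DESeq2 called 6 higher and 17 lower of 162, beside 7.12% and 3.69% of all genes. With the GC and length terms edgeR called 1 higher and 11 lower of 155, where 5.01% of all genes were called in either direction. Leaving out KO replicate 1 gave 26 higher and 42 lower of 157 by edgeR, beside 23.6% and 26.0% of all genes. The same shares of all genes stand beside the counts of each list below. Of 13 genes of fatty acid uptake, binding and activation, 3 fell and 0 rose. Fabp4, a fatty acid binding protein of macrophages and fat cells, was at 88 ± 9.72 CPM in KO libraries and 280.5 ± 15.6 CPM in WT libraries, a log2 difference of -1.67 (SE 0.111, edgeR adjusted p = 0.00634). With the GC and length terms it was -0.90 (0.0546), which is no longer a call. Fabp5, its relative, was at 1091 ± 243 CPM in KO and 2307 ± 162 CPM in WT (edgeR, log2 -1.08, adjusted p = 0.0422). Dbi, which binds acyl-CoA esters in the cytosol, was at 52.3 ± 7.14 CPM in KO and 85.7 ± 4.37 CPM in WT (log2 -0.71, 0.0446). Cd36 had the largest difference of this list, at 619.1, 204.2 and 310.9 CPM in KO replicates 1, 2 and 3, against 1175, 1307 and 1739 CPM in the WT libraries. Its log2 difference was -1.90, not called by edgeR (adjusted p = 0.0788) but called by DESeq2 (adjusted p = 0.000181). With the GC and length terms it was -1.25 and edgeR called it (adjusted p = 0.00916). The median of the 13 was -0.13, and without KO replicate 1 the count was 1 higher and 7 lower.

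Of 8 genes of lipid storage and lipolysis, 1 fell and 0 rose, with a median of -0.48. It was Plin2, the coat protein of lipid droplets, at 645.2 ± 69.6 CPM in KO libraries and 1630 ± 69.2 CPM in WT libraries (log2 -1.34, SE 0.11, edgeR adjusted p = 0.0106). The count was 1 higher and 4 lower when KO replicate 1 was left out.

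The PPAR targets had the lowest median of these lists. Besides the members, 10 of 12 were tested, 1 rose and 4 fell, with a median of -0.81. Without KO replicate 1 it was 1 higher and 8 lower, beside 23.6% and 26.0% of all genes. The largest fall was of Angptl4, a secreted inhibitor of lipoprotein lipase, at 6.34 ± 0.939 CPM in KO libraries and 45.9 ± 5.79 CPM in WT libraries (log2 -2.85, SE 0.164, edgeR adjusted p = 0.00345). Fabp4 and Plin2 belong to this list too, and Klf10, a zinc-finger factor named after its value was seen, also fell (log2 -0.52, adjusted p = 0.0411). Gpr84, a receptor for medium-chain fatty acids, rose, at 5.64, 4.25 and 2.87 TPM in the KO libraries against 0.45, 0.73 and 0.44 TPM in the WT libraries (log2 2.80, adjusted p = 0.0254). Its counts were 76, 67 and 44 in KO replicates 1, 2 and 3, against 7, 11 and 6 in the WT libraries. Gpr84 passed the filter only through the KO libraries, where it was high, so its call is no independent evidence of a rise. The large fall of Angptl4 was known when this list was drawn up, so the count of the list is no independent evidence of a direction.

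The receptors themselves were not called. Ppard was at 39, 18.2 and 19.4 TPM in KO replicates 1, 2 and 3, against 25.5, 23.7 and 24.4 TPM in the WT libraries (edgeR adjusted p = 0.814), so KO replicate 1 was above WT and the others below. Pparg was at 20.5, 36.1 and 37.2 TPM in KO against 32.2, 36.8 and 41.1 TPM in WT (0.424). Ppara did not pass the filter and stood at no more than 0.05 TPM in any library. Of all 17 tested regulators edgeR called 0, with 1 at an unadjusted p under 0.05, while DESeq2 called 1 higher and limma-voom 0. Leaving out KO replicate 1 made 3 of 18 higher and 6 lower, beside 23.6% and 26.0% of all genes. Ppard was among the lower (log2 -0.48, edgeR adjusted p = 0.00576).

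Of 18 other enzymes of mitochondrial beta-oxidation edgeR called 0, with 3 at an unadjusted p under 0.05 and a median of -0.03. DESeq2 called 1 higher and limma-voom 0, and edgeR without KO replicate 1 called 5 higher and 0 lower. The smallest p was that of Acat1, a thiolase of ketone and isoleucine breakdown, at 12.9, 17.4 and 16 TPM in the KO libraries against 8.95, 7.67 and 8.58 TPM in the WT libraries (log2 0.74, adjusted p = 0.0798). Etfa, which carries electrons to Etfdh, was at 57.3, 38.9 and 49.4 TPM in the KO libraries against 59.9, 72.2 and 74.6 TPM in the WT libraries (log2 -0.66, 0.0638), and its partner Etfb at 62.4, 74 and 79.1 TPM in KO against 73.5, 77.8 and 68.8 TPM in WT (0.473). In the malonyl-CoA and carnitine list edgeR called 0 of 9, with 1 at an unadjusted p under 0.05, DESeq2 1 higher and limma-voom 0. That gene was Cpt1c, a paralogue of Cpt1a known mainly from neurons, which was higher where Cpt1a was lower. It was at 0.46, 0.87 and 0.77 TPM in the KO libraries against 0.1, 0.09 and 0.3 TPM in the WT libraries, without overlap (log2 2.10, edgeR adjusted p = 0.0936, DESeq2 0.048). It was called by edgeR when KO replicate 1 was left out (2.35, adjusted p = 0.00397), among 1 higher and 2 lower of 10. Its counts were 12, 24 and 23 in KO replicates 1, 2 and 3, against 3, 2 and 7 in the WT libraries. Cpt1c passed the filter only through the KO libraries, where it was high, so these calls are no independent evidence of a rise.

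At the pyruvate side, 1 of 13 genes fell and 0 rose (2 higher and 3 lower without KO replicate 1). Mpc1, a subunit of the mitochondrial pyruvate carrier, was at 72.7 ± 6.95 CPM in KO libraries and 148.9 ± 7.9 CPM in WT libraries (log2 -1.03, SE 0.102, edgeR adjusted p = 0.0147). Its partner Mpc2 was at 50.4, 65.7 and 68.8 TPM in the KO libraries against 65.3, 73.6 and 65.1 TPM in the WT libraries (0.351). Pdk1, a kinase of the same family as Pdk4, was at 16.4, 24.2 and 20.1 TPM in the KO libraries against 10.7, 10.4 and 12.2 TPM in the WT libraries, without overlap (log2 0.70, 0.0743). Pdk2 and Pdk3 overlapped between the labels, and all 3 kinases were above 7 TPM in every library, where Pdk4 was at or under 0.36 TPM. Of the calls in these lists, those of Fabp5, Dbi, Plin2, Gpr84, Klf10 and Mpc1 held when KO replicate 1 was left out and were lost when any other library was. That of Angptl4 held in 5 of the 6 fits that leave a library out, and that of Fabp4 in 3.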

How the data were processed

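The authors deposited, per the file headers, estimated counts for each gene and library without normalization. TPM and FPKM were also deposited by the authors. Per the file headers, DESeq2 gave the deposited log2 fold changes, p-values and q-values. The header reads WT-vs-KO, but the sign follows KO over WT. The submitters' processing notes name fastp 0.18.0 and GRCm39. Aligner, counter, strand setting and annotation: not given in the sources used here. Table coordinates are those of GRCm38, since 13131 of 15426 genes matched by ID had the start of RefSeq's GRCm38.p6 table, whose positions are printed. The table's own position equals it for 7 of the 10 members. No other samples' columns were present.

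Counts were rounded, filtered with filterByExpr (minimum count 10), scaled with TMM and tested with edgeR 4.0.16 in R 4.3.3 (robust quasi-likelihood, group alone in the model). Benjamini-Hochberg adjustment ran over 11424 genes. Genes under an adjusted p of 0.05 were called. Levels within a gene are CPM on the scaled library sizes; levels between genes are TPM. The depth was 17280855 to 18632623 counts. FPKM served only to repeat the ratios. The alternatives were other scaling, DESeq2 1.42.0, limma-voom (limma 3.58.1), limma on log2(TPM + 1) and log2(TPM + 0.1), other filters, a replicate block, each library left out, and offsets from smooth terms in GC content and transcript length (mgcv 1.9.3; longest coding transcript in GENCODE M21, found for 14846 genes). All members were named, and from each list up to 4 called genes averaging 1 CPM or more, or else the smallest p. Members and lists were chosen with earlier results of these data known. Other genes were named after their values were seen.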

Additional observations from a re-analysis of the deposited data

How the results depend on the processing

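The number of genes called over the table was 379. It stayed within 1.5 times that with RLE or upper-quartile factors, limma-voom and no filter. It was 1344 with DESeq2, 229 above a mean of 10 CPM, 987 and 1071 by limma on log2(TPM + 1) and log2(TPM + 0.1), 572 with the GC and length terms, 15 at an adjusted p under 0.01, and 5 to 5793 with 1 library left out, the highest without KO replicate 1. With the GC and length terms and KO replicate 1 left out it was 6325. Of the members 1 was called. This became 3 with DESeq2, 0 without a filter, 0 above a mean of 10 CPM, 0 with the GC and length terms, 0 at an adjusted p under 0.01, and 0 to 5 with 1 library left out, the 5 without KO replicate 1. It became 8 with the GC and length terms and without that library. On both TPM scales 1 member was called as well, but it was Acadl (-0.37, limma adjusted p = 0.0457 on log2(TPM + 1) and 0.0439 on log2(TPM + 0.1)), and Cpt1a was not (-0.45 and -0.46, 0.0901 and 0.0888). The labels do not say whether the replicate numbers pair the libraries. Deviations of same-numbered libraries from their group means correlated at -0.162, 0.246 and -0.271, and those of differently numbered libraries between -0.343 and 0.347. Such deviations sum to 0 within each group of 3, so these values cannot decide whether libraries are paired. With the replicate block edgeR called 0 genes and 0 members (17 and 0 with the GC and length terms as well). In the fit with the block alone 0 of the 9 members had an adjusted p under 0.05, Cpt1a being at 0.189. The median log2 difference of the members was -0.34 with the GC and length terms, beside -0.08 over all genes tested. It was -0.25 to -0.03 with 1 library left out. The log2 difference, KO minus WT, of the Cpt1a to Cpt2 ratio stayed between -0.95 and -0.53. That of the Hadha to Hadhb ratio stayed between 0.05 and 0.14.

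Of 162 values of single members under alternatives, 14 changed sign, all in Cpt2, Hadha and Hadhb. With 1 library left out, Cpt2 ranged between -0.03 and 0.26, Hadha between -0.15 and 0.17 and Hadhb between -0.23 and 0.07. Cpt2 was at -0.03 and -0.01 without KO replicate 2 or 3, at -0.14 with the GC and length terms, -0.08 when KO replicate 1 was also left out and -0.14 when the replicate block was added. Hadha was at 0.06 with upper-quartile factors, 0.01 above a mean of 10 CPM, 0.17 without KO replicate 1, and 0.11 and 0.12 on the 2 TPM scales. Hadhb was at 0.07 without KO replicate 1, 0.03 and 0.03 on the TPM scales, and 0.19 with the GC and length terms and without KO replicate 1. The cause was not tested. With 3 libraries a group, the 95% intervals of the uncalled members reach differences of -0.78 to 0.49.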

Other observations

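Genes of the citric acid cycle and of mitochondrial mass had medians near that of all genes in the fit of all 6 libraries. Of 16 citric acid cycle genes edgeR called 0, with 0 at an unadjusted p under 0.05 and a median log2 difference of 0.09. DESeq2 and limma-voom called 0, limma on log2(TPM + 1) 1 higher, and edgeR 5 higher and 3 lower once KO replicate 1 was left out (median 0.19). Of 16 genes listed for mitochondrial mass edgeR called 0, with 2 at an unadjusted p under 0.05 and a median of -0.08. DESeq2 and limma-voom called 0, and edgeR 1 higher and 4 lower once that library was left out. Of 14 peroxisomal genes of beta-oxidation edgeR called 0, with 4 at an unadjusted p under 0.05 and a median of -0.01, while DESeq2 called 2 lower, limma-voom 0, limma on log2(TPM + 1) 1 higher, and edgeR 3 higher and 2 lower once KO replicate 1 was left out. Of the other lists, the branched-chain group (11 tested), the electron transfer group (4), the ketone body group (5) and the AMPK subunits (7) had no gene called by edgeR or limma-voom, with 0, 2, 3 and 1 at an unadjusted p under 0.05. DESeq2 called 0, 2, 2 and 0 of them. With KO replicate 1 left out the edgeR counts, higher and lower, were 2 and 3, 0 and 2, 1 and 1, and 0 and 2. That fit called 23.6% of all genes higher and 26.0% lower, and DESeq2 on all 6 libraries 7.12% and 3.69%.

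Among the 8280 genes averaging 10 CPM or more, the 5 whose profile over the 6 libraries lay closest to the median profile of the members were Ckap4, Bcap31, Clcc1, Emc1 and Scamp5, at Euclidean distances of 0.0896 to 0.107 in centred log2 CPM. Acadvl and Etfdh stood at ranks 53 and 87 by the same distance, and Cpt1a at rank 4565. The members themselves define this profile, so their ranks are no independent evidence of likeness. The same was not done for Pdk4, which did not pass the filter.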
